A study of Mus musculus with 4 samples.

Results

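Long non-coding RNA (lncRNA) genes that stand clear of protein-coding genes held 550 of the 7412 autosomal peaks in mouse striatum chromatin recovered with a tagged thyroid hormone receptor. A peak belonged to this set when its summit lay outside every protein-coding gene span of the RefSeq annotation of GRCm38 and more than 1 kb from any coding gene end, and inside a lncRNA gene or within 1 kb of one. Within the list of called peaks the rule used position alone, and no measured value entered it. The set was chosen with earlier results of these data known. The whole series held 7484 peaks with those on the sex chromosomes. The study recovered chromatin through a GS tag on TRα1, a thyroid hormone receptor made from the Thra gene, and set 3 immunoprecipitated (IP) fractions against 1 input. The title names 1 genotype for the striatum, Gad2Cre x ThraGS, and no other genotype was among the 4 libraries. The IP used magnetic beads coated with IgG, to which the tag binds, and the input had no antibody. For age, sex and the number of animals in a fraction, the sources used here give nothing.

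The series has 1 common peak list, and how the 3 fractions varied cannot be read from it. An IP from animals without the tag was not analysed here, and binding of the receptor and unspecific recovery by the beads cannot be told apart at any peak below. A peak list carries no expression values, so striatal and GABAergic cell markers could not be checked. Gad2-Cre acts in GABAergic neurons, and signal from other cells of the tissue was not measured separately.

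Thyroid hormone receptors are nuclear receptors that sit on DNA with or without hormone, often as a pair with a retinoid X receptor. Their classical element is DR4, a direct repeat of the hexamer AGGTCA with a spacer of 4 bases. LncRNA genes make transcripts without a long reading frame. Some host microRNAs or small nucleolar RNAs, some build nuclear bodies, and many lie next to genes of developmental transcription factors.

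Sequence was at hand for promoter windows of RefSeq (GRCm38.p6), each 300 bp long from 250 bp before to 50 bp after an annotated start. Of 12408 autosomal lncRNA genes, 9291 matched a window. In 29 windows of these genes lay the summit of a peak of the set, and the sequences below are shown because the peak sits on them. The first holds the strongest of these 29 peaks, the other 3 hold a DR4-like repeat. Capitals mark AGGTCA on either strand, or each hexamer of a DR4-like repeat with at most 2 differences in its 12 defined bases. All run 5′ to 3′ on the strand of the lncRNA.
4632428C04Rik: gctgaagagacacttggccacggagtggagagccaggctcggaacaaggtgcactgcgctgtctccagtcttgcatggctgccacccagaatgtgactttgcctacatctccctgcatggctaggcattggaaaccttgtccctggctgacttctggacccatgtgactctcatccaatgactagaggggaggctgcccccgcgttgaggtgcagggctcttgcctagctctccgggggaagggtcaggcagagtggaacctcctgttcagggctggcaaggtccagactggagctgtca
Gm1653: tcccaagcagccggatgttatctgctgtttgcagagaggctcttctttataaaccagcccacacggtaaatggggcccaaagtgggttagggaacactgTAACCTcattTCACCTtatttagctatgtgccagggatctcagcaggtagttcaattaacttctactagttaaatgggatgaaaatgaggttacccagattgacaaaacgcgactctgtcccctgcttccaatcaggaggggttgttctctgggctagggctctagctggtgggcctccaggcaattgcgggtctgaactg
Gm46091: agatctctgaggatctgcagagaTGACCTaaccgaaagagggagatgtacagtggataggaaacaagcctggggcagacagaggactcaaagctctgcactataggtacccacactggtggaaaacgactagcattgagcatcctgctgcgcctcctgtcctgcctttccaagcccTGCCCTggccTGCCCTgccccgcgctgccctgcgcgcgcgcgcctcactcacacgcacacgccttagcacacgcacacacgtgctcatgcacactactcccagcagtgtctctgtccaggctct
1700054A03Rik: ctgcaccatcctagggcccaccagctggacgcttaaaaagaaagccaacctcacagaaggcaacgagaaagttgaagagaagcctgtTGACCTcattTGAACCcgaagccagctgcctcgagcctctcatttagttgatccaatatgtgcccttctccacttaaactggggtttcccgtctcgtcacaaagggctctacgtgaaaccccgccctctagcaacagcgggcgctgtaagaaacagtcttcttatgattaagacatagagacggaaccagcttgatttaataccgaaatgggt

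The window of 4632428C04Rik, chr16:30008417-30008716 on the plus strand, had its summit 109 bp upstream of the start, with a fold enrichment of 22.1. It has no capital letters, since neither pattern was found there. The window of Gm1653, chr3:149274487-149274786 on the plus strand, had a fold of 10.5 with the summit 89 bp upstream of the start. Gm46091 starts inside the span of Pantr1, near the neural transcription factor gene Pou3f3. Its window, chr1:42684288-42684587 on the plus strand, had a fold of 6.52 with the summit 88 bp upstream. The window of 1700054A03Rik, chr19:53076002-53076301 on the plus strand, had a fold of 6.14 with the summit 173 bp upstream, and 1 hexamer of its repeat is a perfect AGGTCA.

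A DR4-like repeat, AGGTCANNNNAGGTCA with at most 2 differences on either strand, was found in 7 of the 29 windows, 24.1% (95% exact interval 10.3 to 43.5). It was found in 10.4% of 498 other windows that hold a summit (7.90 to 13.5), in 3.70% of 11311 windows of lncRNA genes and in 3.04% of all 31396 windows. The intervals of the first 2 shares overlap. The 7 repeats are printed below in the orientation of the motif, with the hexamers in capitals.
Gm16582: AGTTCAcagcAGGGCA
Gm1653: AGGTGAaatgAGGTTA
Gm41442: AGTTCAgcagAGGTGA
Gm36752: GGGTCAcctaAGGCCA
B930025P03Rik: AGGTTAaacaAGGCCA
Gm46091: AGGGCAggccAGGGCA
1700054A03Rik: GGTTCAaatgAGGTCA

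The repeat of B930025P03Rik covered the summit itself. Those of 1700054A03Rik, Gm41442, Gm46091 and Gm36752 lay 10, 12, 14 and 17 bp from their summits, that of Gm1653 47 bp and that of Gm16582 120 bp. Each of the 7 had 2 differences, so none was a perfect DR4. The perfect repeat was in none of the 29 windows and in 5 of all 31396. AGGTCA alone was in 5 of the 29 windows, 17.2% (5.85 to 35.8), against 16.3% of all windows. Of the 7 repeats, that of 1700054A03Rik contains AGGTCA and the other 6 do not. TGAGGTCA, which contains AGGTCA, was in 1 of the 29, against 2.21% of all windows. An inverted repeat of the hexamer without a spacer was in none of the 29 and in none of all windows. The everted repeat TGACCTNNNNNNAGGTCA, the B box of tRNA genes and a CTCF core, sought on both strands, were in none of the 29 and in 0.00319%, 0.0478% and 0.0127% of all windows. A match describes the letters of a window and does not show that the receptor is bound there.

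Peaks at intergenic lncRNA genes had a median strength close to that of the rest of the list. The fold enrichment is the authors' own value, a linear ratio in which the height of stacked IP fragments at the summit (the pileup), plus 1, is divided by the local background, plus 1. Its median was 6.92 in the set (95% interval from order statistics 6.79 to 7.29), against 6.91 in the 6862 other autosomal peaks (6.85 to 7.06). The quartiles were 5.57 and 10.04 in the set, against 5.55 and 9.72 in the other peaks. The median pileup was 21.6 in both groups, the median width was 257 bp in the set against 260 bp elsewhere, and the median background was 2.00 in both. The ranges were 2.98 to 91.0 in the set, against 1.38 to 54.0 in the others.

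In the set, 141 peaks had a fold of 10 or more, 25.6% (22.0 to 29.5), against 24.0% of all autosomal peaks. A fold of 20 or more was seen in 20 of them, 3.64% (2.24 to 5.56), against 3.58% of all autosomal peaks. Both shares lie near the level of the whole list and are no result about the set. The nearest comparison, 1917 intergenic peaks away from lncRNA genes, had a median of 7.17 (6.91 to 7.22) and 25.4% at a fold of 10 or more. Peaks of 1 list share their libraries and are not replicates, so no test was made between these groups.

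**Figure D1:**
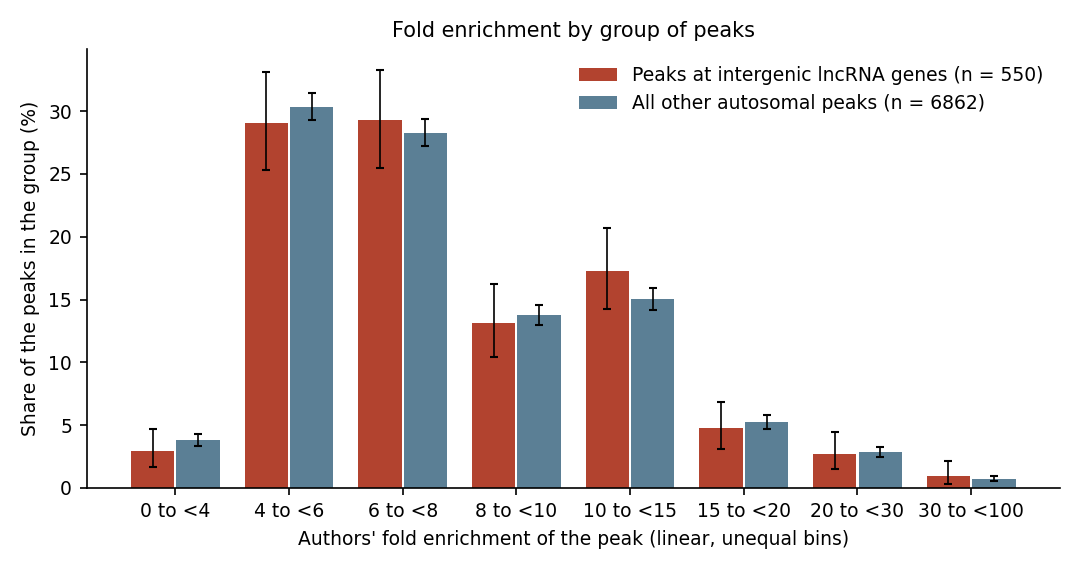
Share of peaks (%) in bins of the authors' fold enrichment, for peaks at intergenic lncRNA genes and for all other autosomal peaks, with 95% exact intervals as error bars. In each bin the 2 shares lie close together, for example 17.3% of the set and 15.04% of the others between 10 and 15.

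Per length of genome, intergenic lncRNA genes held summits near the autosomal level, above other intergenic sequence and below coding genes. The part of the autosomes that meets the rule came to 182.6 Mb, 7.48% of the autosomal length spanned by annotated genes. It held 7.42% of the autosomal peaks (6.83 to 8.04), or 3.01 summits per Mb (95% exact Poisson interval 2.77 to 3.27). The whole autosomal length held 3.03 per Mb (2.96 to 3.10). Intergenic sequence away from lncRNA genes held 1.53 per Mb (1.47 to 1.61), and coding genes with 1 kb around them held 4.86 per Mb (4.73 to 4.997). The length in which reads can be placed was not used here, and its part in these densities was not tested.

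Within the lncRNA loci, density was highest around the starts. Up to 1 kb from an annotated lncRNA start, 107 summits gave 8.41 per Mb (6.89 to 10.2). The rest of the loci with a start in the table held 331 summits, 2.53 per Mb (2.26 to 2.82). Starts were used on 18 of the 19 autosomes, all but chromosome 18. Of 438 peaks with such a start, 46 lay within 250 bp of it and 174 lay over 10 kb away. Within 1 kb, 53 summits were upstream and 54 downstream. The median fold was 7.17 within 1 kb of a start, 6.59 from 1 to 10 kb and 7.50 beyond 10 kb, an order that does not follow the distance.

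**Figure D2:**
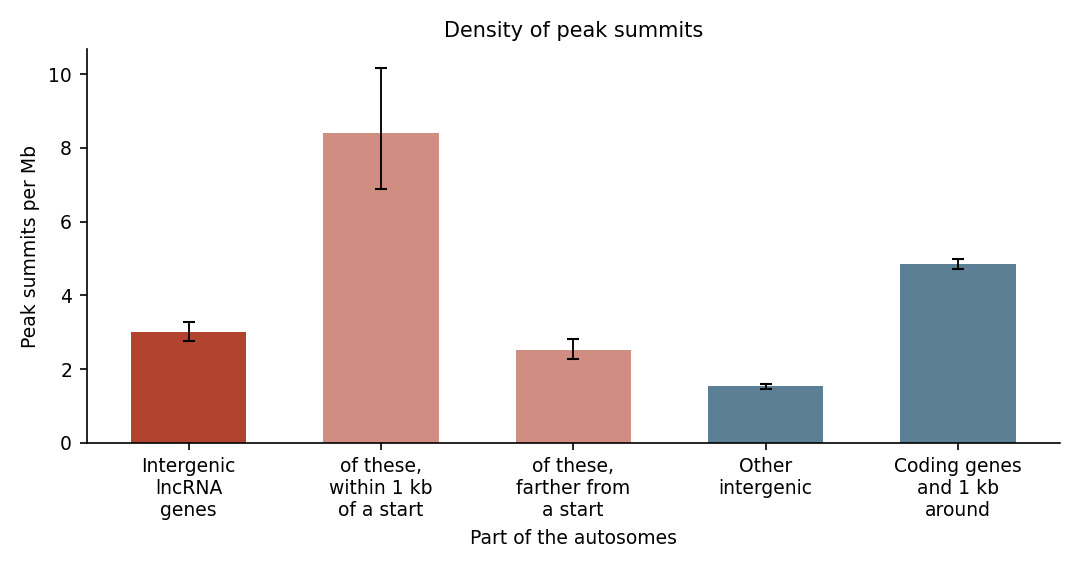
Peak summits per Mb of autosome in loci of intergenic lncRNA genes, in their parts near to and farther from an annotated start, in other intergenic sequence and in coding genes with 1 kb around. Error bars are 95% exact Poisson intervals, and the part within 1 kb of a start stands highest of these bars with 8.41 per Mb. Density around starts of coding genes was not computed, so the bars do not compare lncRNA starts with coding gene starts.

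**Figure D3:**
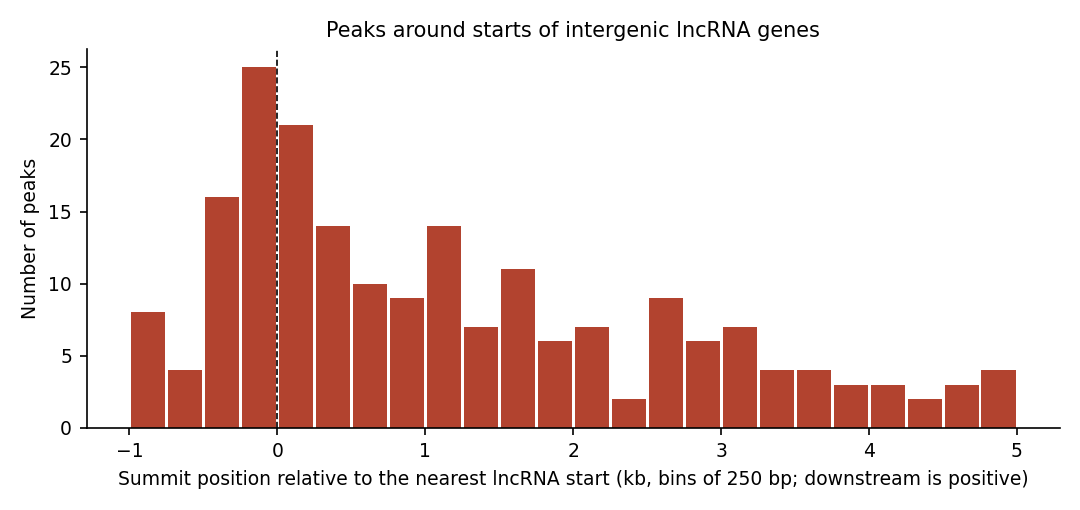
Number of peaks of the set in bins of 250 bp around the nearest annotated lncRNA start, with downstream positions positive. The bins just before and just after the start hold 25 and 21 peaks, the most of all bins, and sequence over 1 kb upstream of a gene is outside the rule.

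By chromosome, the set held 13 to 51 peaks with a median of 25. Its density ran from 1.62 per Mb on chromosome 18 (0.864 to 2.78) to 4.90 per Mb on chromosome 19 (2.99 to 7.56). Chromosomes 9 and 11 had 4.03 and 4.12 per Mb, and chromosome 10 had 1.74.

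The 25 strongest peaks had folds of 18.6 to 91.0. Of them 22 lay inside the lncRNA span, 6 belonged to genes with a curated transcript, and 16 were over 30 kb from the nearest coding gene. The strongest, in Gm34259 at chr17:4626072-4626693, had a pileup of 262 at a fold of 91.0. It stands between Nox3, a NADPH oxidase gene, at 930 kb and Arid1b, a chromatin remodelling subunit gene, at 368 kb. The nearest other summit was 214896 bp away. The next peak of the set, 39.4 in Gm40576 at chr12:110227674-110228118, was 51.3 kb below Dio3, the gene of the deiodinase that inactivates thyroid hormone.

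Some of the 25 had a transcription factor gene on 1 side. D730003I15Rik had a fold of 26.5 at chr1:191224380-191225049, 110 bp downstream of its start. Its neighbours are Atf3, a stress-induced factor gene, at 41.2 kb and Nenf, which encodes a secreted neurotrophic protein, at 82.2 kb. 4632428C04Rik, shown above, lies 56.8 kb from Hes1, the Notch effector gene. Gm30438 had 23.2 at 63.8 kb from Ebf2, a helix-loop-helix factor gene. 4930546C10Rik on chromosome 18 had 22.2, with Tcf4, another helix-loop-helix factor gene, at 438 kb. Gm40841 had 29.1 between Prl5a1, of the prolactin family, at 266 kb and Sox4, at 531 kb. Nearness on the chromosome does not show which gene, if any, a peak acts on.

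Others had a metabolic, signalling or immune gene on at least 1 side. Lexis1, a lncRNA gene known in mouse liver as a sterol-responsive regulator of cholesterol synthesis, had 20.7 at chr4:53218030-53218443. That summit was 131 bp downstream of its start and 58.2 kb from Abca1, the cholesterol exporter gene. Gm40805 had 30.7 between Sdr9c7 and Hsd17b6, both dehydrogenase genes of retinoid and steroid metabolism. E230001N04Rik had 19.5 at chr17:28522679-28523280, and its nearest coding gene was Armc12 at 7.80 kb. Fkbp5, a glucocorticoid receptor co-chaperone gene, lay farther off on the other side, at 36.9 kb. Gm34755 had 26.3 between Klrb1c and Klrb1b, which encode receptors of natural killer cells. Gm40246 had 23.02, with the kainate receptor gene Grik3 at 345 kb and the RNase gene Zc3h12a at 17.6 kb. That peak also lies at the lncRNA gene Gm32611.

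The remaining peaks of the 25 stood beside genes of mixed roles. Gm46033 had 33.8 at 330 kb from Csmd1, Gm30568 had 24.9 at 39.2 kb from Tex35, and Gm30366 had 24.7 at 123 kb from Fstl4. Gm29890 had 21.5 at 151 kb from Kif26a, a kinesin family gene, and Gm13846 had 21.0 at 97.0 kb from Podxl. Gm1604a had 19.9 at 24.2 kb from Rsph3a, and Gm52359 had 19.5 at 62.3 kb from Mtpap, the mitochondrial poly(A) polymerase gene. Gm38844 had 19.1 at 1402 bp from Stambp, a deubiquitinase gene. Gm36644 had 18.6 at 3878 bp from Kctd17, with its summit 13 bp downstream of the start, and Gm41355 shares this peak. The local background of the peak in Gm13846 was 5 at a median of 2.00 over the set.

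**Figure D4:**
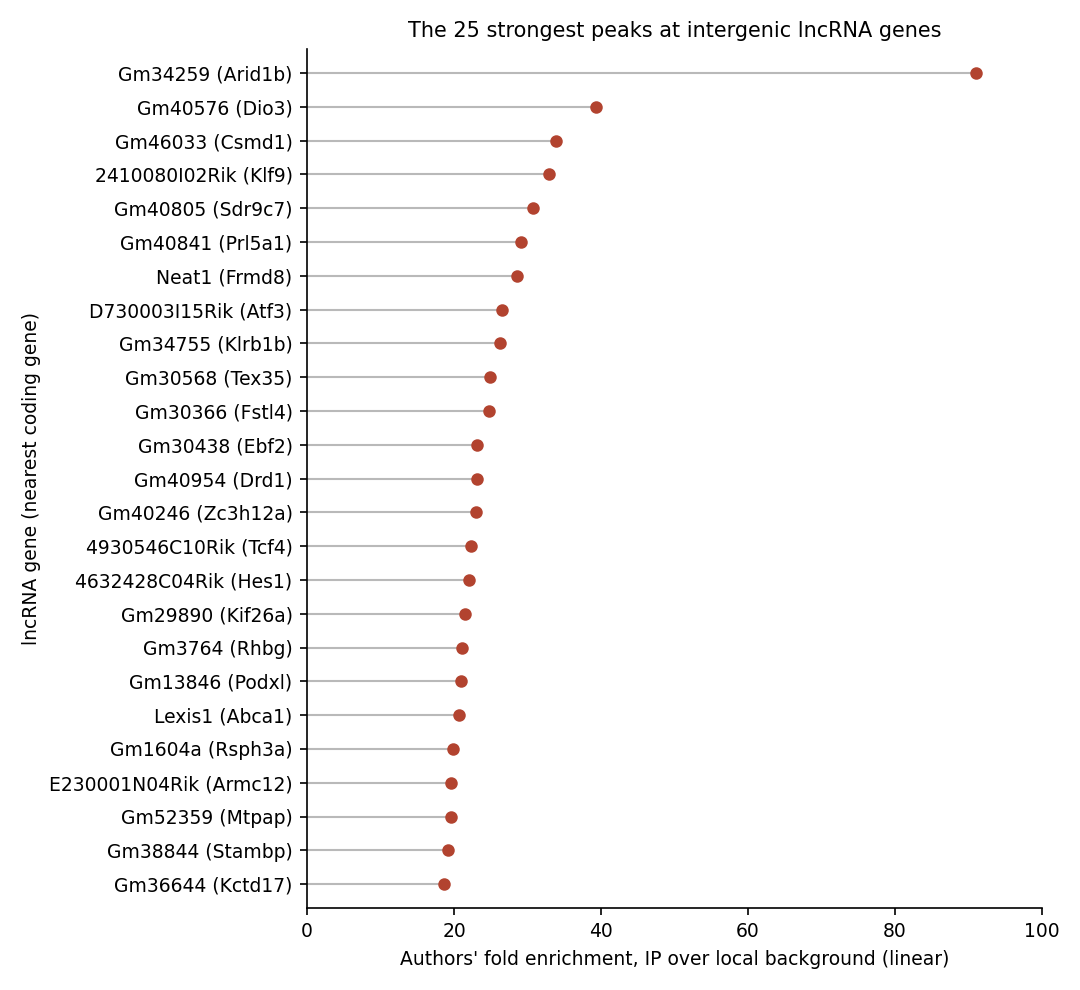
Authors' fold enrichment of the 25 strongest peaks at intergenic lncRNA genes, each labelled with the lncRNA gene and its nearest coding gene. The peak in Gm34259 stands apart at 91.0, and the other 24 lie between 18.6 and 39.4.

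Well-known lncRNA genes were held in 5 lists of 65 names, of which 56 have a stretch clear of coding genes. Peaks were at 13 of these 56, 23.2% (13.0 to 36.4), against 506 of 9584 lncRNA genes with such a stretch, 5.28% (4.84 to 5.75). The median length was 12.6 kb in the lists and 9.01 kb over all. Listed genes with a peak were 1.85 kb (Snhg5) to 239 kb (Mir100hg) long, and lengths were not matched. The lists were chosen by name with earlier results of these data known. Their share carries no independent support and is a description without a test. The same holds for the count given below for each list, which stands beside the 5.28% over all.

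Nuclear and stress-linked lncRNA genes had peaks at 4 of 10. Neat1, the scaffold of nuclear paraspeckles, had a fold of 28.6 at chr19:5845504-5845956, 327 bp beyond its upper-coordinate end. Malat1, an abundant nuclear RNA beside it on the chromosome, had 11.0 at chr19:5803427-5803710, 881 bp upstream of its start. Lncpint, a p53-induced RNA, had 15.5 and 9.10. Pvt1, the neighbour of Myc, had 13.7, 5.65 and 4.34, and the strongest was 92.8 kb from Myc. The highest peak of each of the 4 genes reached a fold of 10, while the other peaks of Lncpint and Pvt1 did not. Among all autosomal peaks, 24.0% had a fold of 10 or more.

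Host genes of small nucleolar RNAs had peaks at 3 of 14. Snhg20 had 13.7 at chr11:117076576-117076849, with the summit 92 bp upstream of its start. Snhg5 had 9.12, 149 bp upstream of its start, and Snhg15 had 3.30 inside its span. The peaks of Snhg20 and Snhg5 lie in their promoter windows.

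Host genes of microRNAs had peaks at 4 of 12 listed genes, and 17 lncRNA genes with a peak, listed or not, contain an annotated mature microRNA. The sequences below are shown because their hosts carry a peak of the set. The seed, bases 2 to 8, is in capitals, and microRNAs of 1 family share it.
mmu-miR-9-5p (Mir9-3hg): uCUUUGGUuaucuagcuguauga
mmu-let-7b-5p (Lncppara): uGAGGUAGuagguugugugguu
mmu-let-7c-5p (Lncppara): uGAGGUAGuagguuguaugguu
mmu-miR-29b-3p (A330023F24Rik): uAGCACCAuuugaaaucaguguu
mmu-miR-29c-3p (A330023F24Rik): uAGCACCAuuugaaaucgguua
mmu-miR-125b-5p (Mir100hg): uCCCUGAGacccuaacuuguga
mmu-miR-129-5p (Mir670hg): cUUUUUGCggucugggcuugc
mmu-miR-193b-3p (Gm32817): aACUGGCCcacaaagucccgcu
mmu-miR-22-3p (Mir22hg): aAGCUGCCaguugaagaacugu
mmu-miR-770-5p (Meg3): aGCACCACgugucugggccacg

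The miR-9 family, which acts in neural development, had peaks at 2 of its host genes. Mir9-3hg had 12.4, 8.94 and 5.22, and the peak of 8.94 was 4.30 kb from miR-9-5p. Gm3764, which holds Mir9-1, had 21.1 at chr3:88230184-88230680, 585 bp outside the gene and 14.9 kb from that mature sequence. Both loci give the mature sequence with the seed CUUUGGU. Lncppara, which holds let-7c and let-7b with their common seed GAGGUAG, had 5.22 at 545 bp from let-7c-5p and 28.8 kb from Ppara, a lipid-sensing nuclear receptor gene. A330023F24Rik, host of miR-29b and miR-29c with the common seed AGCACCA, had 9.72 at 42 bp upstream of its start. The peak was thus on the promoter and about 19.7 kb from the nearer microRNA.

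Mir100hg had 8.70 at 2.23 kb from miR-125b-5p. Its peak of 6.55 lay 56 bp upstream of an annotated start that is well inside its span, not at the start of the gene. Mir670hg, which also holds miR-129, had 8.80, 7.17 and 4.72, and the peak of 7.17 was 1059 bp from miR-129-5p. Gm32817 had 6.59 at 505 bp from the nearer arm of miR-193b. Mir22hg had 5.49, 3.13 kb from miR-22-5p. Among Mir9-3hg, Gm3764, Lncppara, A330023F24Rik, Mir100hg, Mir670hg, Gm32817 and Mir22hg, only Gm3764 and 1 peak of Mir9-3hg passed a fold of 10. Over the whole list, 24.0% of autosomal peaks had a fold of 10 or more.

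Among imprinted non-coding RNA genes, 1 of 6 had peaks. Meg3, expressed from the maternal copy of the domain that ends with Dio3, had 7.85, 5.50 and 4.72. The weakest lay 26 bp from miR-770-5p and 1216 bp from Rtl1. Of the neural and homeobox-linked genes, 1 of 14 had a peak, Pantr1 with 6.52. That summit lies inside the Pantr1 span and in the window of Gm46091 shown above, while no window of Pantr1 was used. The nearest coding gene, Pou3f3, is 11.3 kb away.

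LncRNA genes named for a coding neighbour also had peaks, and were picked here after their values were seen. Dbhos had 15.3, at 4.56 kb from Fam163b and 18.5 kb from Dbh, the dopamine beta-hydroxylase gene. Uchl1os had 8.47, Foxo6os 7.50, Junos 6.35 and Sox1ot 5.03. The highest peaks of Hectd2os, Rab10os, Mkln1os and Chn1os3 had 9.10, 8.23, 6.85 and 4.24. Of these only Dbhos passed a fold of 10, where 24.0% of all autosomal peaks had a fold of 10 or more.

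Most of the lncRNA genes with a peak had a single one. Of the 506 genes, 444 had 1 peak, 45 had 2 and 17 had 3 or more, where genes that overlap can count the same peak. Among the peaks of the set, 43 lay at 2 lncRNA genes, and for some of them only 1 gene is named here. A930011G23Rik on chromosome 5, a gene of 432 kb with a curated transcript, had 9 peaks with folds of 14.99, 11.3, 11.1, 10.1, 7.53, 6.91, 5.97, 4.90 and 4.14. They were spread from 67.3 to 359 kb of its length, and the highest was the one at 67.3 kb. The peaks of 10.1 and 11.3 lay close together, 1764 bp apart. The nearest coding genes were Rasgef1b and Vamp9, none nearer than 112 kb. Gm33616 had 4 peaks of 6.35 to 10.2, 3 of them shared with Gm46131, and Gm31508 had 4 of 5.80 to 7.98.

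At 14 genes there were 3 peaks each. The lncRNA gene 2410080I02Rik is only 2.61 kb long and ends near Klf9, the hormone-induced Krueppel-like factor gene. It had 15.8, 32.9 and 6.197 at 0.450, 1.55 and 2.96 kb from its start. Gm46107, 12.04 kb long and beside Nrgn, the neurogranin gene, had 11.99 near its start and 17.4 and 9.72 just past its end. Gm1604a, 253 kb long, had 19.9, 13.0 and 10.4, and 6530403H02Rik, 432 kb long, had 16.1, 7.11 and 5.18. Gm34288 and Gm50597 overlap and share 14.1, 6.82 and 5.80 near Clvs1.

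Gm31920 had 12.9, 7.53 and 6.78 at 137 to 151 kb from Zswim6. Gm11767 had 9.75, 4.95 and 4.05 within 2.81 kb of Baiap2, a synaptic scaffold gene. Gm38585 had 9.75, 5.65 and 5.50 within 7.41 kb of Notch3, the Notch receptor gene. The 3 peaks of Pvt1, Mir9-3hg, Mir670hg and Meg3 are given above.

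**Figure D5:**
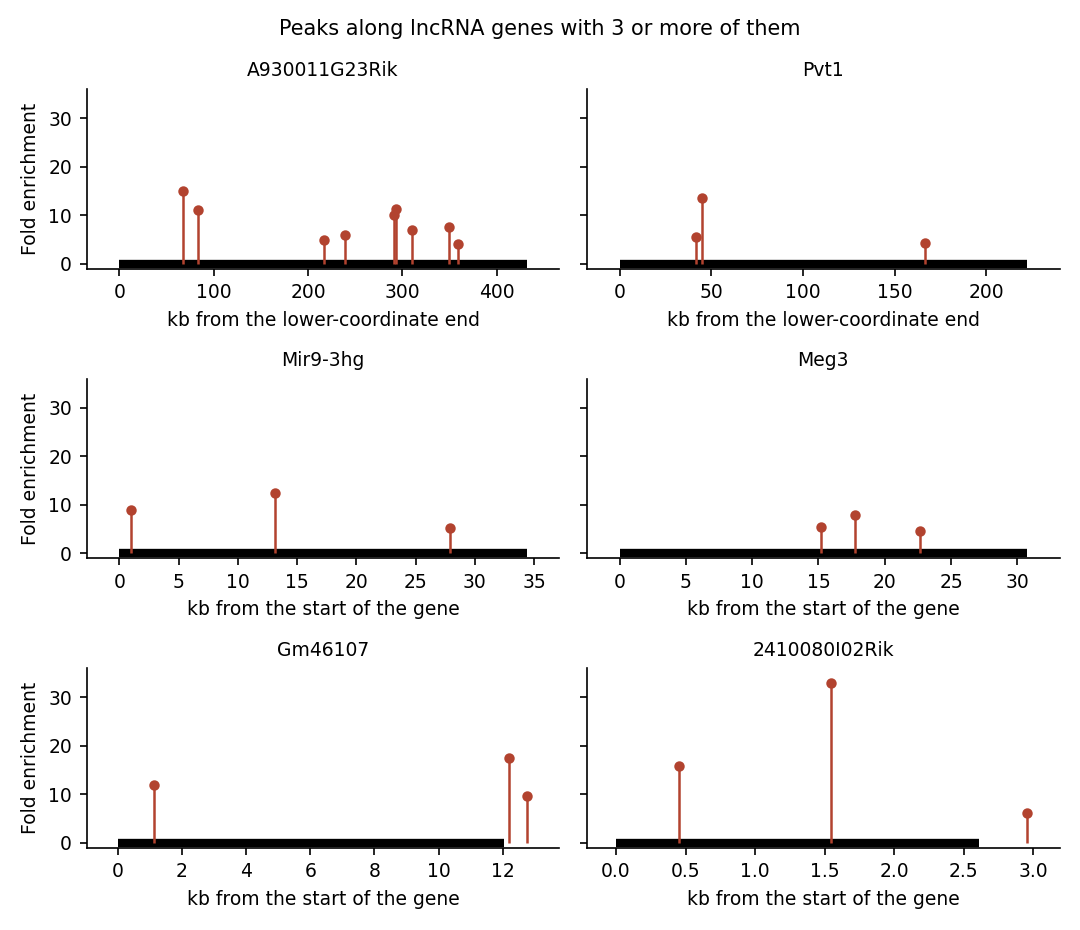
Fold enrichment of each peak (dots) along 6 lncRNA genes with 3 or more peaks, in kb from the start of the gene, or from its lower-coordinate end where no start was in the table. The black bar is the gene, and 2410080I02Rik holds the highest value shown, 32.9, while A930011G23Rik holds 9 peaks.

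Longer lncRNA genes more often had a peak. The share was 2.31% of genes up to 2 kb (1.47 to 3.45), 2.87% from 2 to 10 kb (2.38 to 3.43), 6.59% from 10 to 50 kb (5.80 to 7.44) and 15.2% beyond 50 kb (12.8 to 17.8). The median length was 19.9 kb in genes with a peak and 9.01 kb over all. A longer gene offers a wider target, so these shares do not compare density. Genes with a curated transcript had a peak in 5.78% (4.91 to 6.74), and genes with model transcripts only in 5.09% (4.59 to 5.64). Of the genes with a peak, 387 of 506 carry only a Gm number as a name, as do 7593 of all 9584. A peak was at 5.10% of the genes with a Gm number (4.61 to 5.62), against 5.28% over all.

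The nearest coding gene was 38.5 kb away in the median, with quartiles of 10.4 and 108 kb and a largest distance of 1048 kb, and 440 coding genes were nearest to at least 1 peak. Peaks 1 to 5 kb from a coding gene numbered 70, with a median fold of 6.24 (5.80 to 7.15). From 5 to 30 kb there were 173 with 7.22 (6.85 to 7.82), from 30 to 100 kb 157 with 7.17 (6.71 to 7.62), and beyond 100 kb 150 with 6.85 (6.28 to 7.53). The intervals overlap. None of the 70 nearest reached a fold of 20, against 3.58% of all autosomal peaks. For 70 peaks this leaves an exact upper bound of 5.13%.

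Thyroid hormone target genes of brain were nearest to 11 peaks of the set, at 7 of 33 listed genes, where 440 of all 20665 autosomal coding genes, 2.13%, were nearest to a peak of the set. Besides the peaks beside Dio3, Klf9 and Nrgn, Gm32269 had 12.5 at 26.1 kb from Thrb, the second receptor gene. 9530036O11Rik had 6.197 at 132 kb from Shh, the Hedgehog ligand gene, and Gm33515 had 5.87 at 2255 bp from Aldh1a3, a retinoic acid synthesis gene. A peak in Gm41683 had 4.14 at 45.8 kb from Stard4, a sterol transport gene. This list was chosen with earlier results of these data known and carries no independent support.

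Striatal projection neuron genes were nearest to 5 peaks, at 4 of 34 genes, against the same 2.13% of all coding genes. Gm40954, 205 kb from the dopamine receptor gene Drd1, had 23.2 at chr13:53845761-53846146 and a second peak of 3.09, 4.95 kb away. Gm33341 had 14.3 at 190 bp upstream of its start, 86.2 kb from Bcl11b, the projection neuron factor gene. Gm48057 had 5.97 at 33.9 kb from Gpr6, a receptor gene, and Gm19272 had 4.90 at 225 kb from Tac1, the tachykinin gene. Clock genes were nearest to 3 peaks, at 3 of 24 genes. The folds were 6.90 in 4930543E12Rik near Arntl, 4.09 in C920021L13Rik near Ciart and 3.78 in Gm32934 near Cipc. Both of these lists were also chosen with earlier results of these data known and carry no independent support. How much lncRNA sequence lies beside each coding gene was not matched.

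Some peaks of the set came in groups. Another summit within 5 kb was found for 86 of the 550 peaks, 15.6% (12.7 to 18.9), against 12.4% of the other autosomal peaks (11.6 to 13.2) and 10.5% of intergenic peaks away from lncRNA genes (9.20 to 11.999). Neighbouring peaks count each other and are not independent, so exact intervals of such shares are too narrow. Of the 70 peaks 1 to 5 kb from a coding gene, 37.1% had one (25.9 to 49.5). For peaks outside the set at that distance the share was not computed, so it cannot be read as particular to the set.

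Few of the peaks lay at genes of small structural RNAs. A tRNA gene was within 1 kb of 7 summits, 1.27% (0.513 to 2.60), against 0.525% of the others (0.368 to 0.726). The 4 summits inside a tRNA gene were at n-TAcgc8 with 7.32, n-TMcat15 with 6.30, n-TEctc10 with 5.18 and n-TMcat16 with 3.93. The other 3 lay near n-TRccg2 with 6.35, n-TCgca52 with 5.20 and n-THgtg4 with 4.72. The peak near n-TCgca52 was assigned to Trmt61b, which the table lists as lncRNA. A peak of 4.05 lay on Rn7sk, the gene of the 7SK RNA that holds back transcription elongation, 407 bp from C920006O11Rik. All 8 folds were below 10, where 24.0% of all autosomal peaks had a fold of 10 or more.

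Values on both sides of the rule's limits are given as a description. The 5 peaks of the set less than 100 bp past the coding gene limit had folds of 4.40 to 14.0, and the 3 peaks at lncRNA genes less than 100 bp short of it had 5.97 to 11.0. The 9 peaks in the last 100 bp of the distance allowed from a lncRNA gene had 4.48 to 8.47, and the 4 intergenic peaks up to 100 bp farther out had 3.54 to 26.5. Inside the lncRNA span lay 477 of the 550 summits, with a median of 6.91, and beside it 73, with a median of 7.15.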

How the data were processed

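Chromatin of mouse striatum was measured by IP and sequencing, and the 4 samples were grouped as IP (3) or input (1) from their titles. The submitters' processing notes name Bowtie2 2.3.4.2, MACS2 2.1.1.20160309.0 and 2 names of 1 build, mm10 (GRCm38), with no role or setting. Whether fractions were pooled for the peak calls is not stated in those notes. Per the file headers, the authors deposited positions, the pileup signal at each summit, the fold enrichment (a linear ratio) and a q-value as −log10. The p-value column was not used. Background was computed here as (pileup + 1) / fold − 1. Read totals were not used here, so the depth of each library is unknown.

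Genes came from the RefSeq table of GRCm38.p6, with 20665 coding and 12408 lncRNA genes on autosomes. No genome sequence was used here, so motifs were sought only in RefSeq promoter windows. Python 3.11.15, pandas 2.3.3, numpy 2.4.6 and scipy 1.17.1 were used, and the classification, intervals and motif search were tested on simulated data. Shares have 95% exact (Clopper-Pearson) intervals, medians order-statistic intervals and densities exact Poisson intervals. They cover counting error within 1 list only, and copies of a molecule made by PCR are not independent. No test between groups of peaks was made. Named genes are the 25 strongest peaks, those at listed genes, genes with 3 or more peaks and peaks within 1 kb of a tRNA gene. Other genes named for a DR4-like repeat, a printed window, a microRNA, Rn7sk or a coding neighbour in their own name were chosen after their values were seen. The members and lists were chosen with earlier results of these data known.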

Additional observations from a re-analysis of the deposited data

How the results depend on the processing

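The 6 summary values were recomputed under 10 alternatives, 1 of them, curated lncRNA genes only, chosen after seeing the data. Of 60 values, 48 stayed within 1.5 times for counts or within the interval otherwise, and 12 moved. Where −log10 q was 10 or more, 293 peaks at 280 genes were left, with a median fold of 9.77 and 48.1% at a fold of 10 or more. Without genes named by Gm and digits only, 151 peaks (2.04%) at 120 genes were left, and Gm1604a was kept for its final letter. With curated genes, 180 peaks (2.43%) at 151 genes were left. The share of autosomal peaks was 6.44% inside the lncRNA span only and 8.16% with 2 kb allowed. In each of these cases fewer or more peaks or genes met the rule by construction. The difference in median fold from the other peaks was 0.0105 and ran from −0.0589 to 0.327, below 0 in 2 alternatives. The motif alternatives, which need genome sequence around each summit, were not run. No paired analysis was possible because the list holds no value per library, and for the same reason no fraction could be left out. What depth limits cannot be given without read totals.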
